A study of Mus musculus with 7 samples.

Results

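Solute carriers are the membrane proteins that move nutrients, ions, vitamins and metabolites into and out of cells and organelles. Of 373 protein-coding mouse genes whose symbol is Slc followed by a number, 49 were counted often enough in sorted osteoblasts to be described here. They were chosen by their raw counts: each had a mean of 10 or more counts over the 7 libraries, so the levels given below are a description and were not tested. The rule for the 49 did not use the difference between tumor-bearing and tumor-free mice, which was tested across all genes. Which members are given by library was set in part by that difference, and earlier results of these data were known.

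The libraries came from GFP-positive cells of mice in which the osteocalcin (Ocn) promoter drives GFP. All mice, controls included, were C57BL/6 males carrying KrasLSL-G12D/WT and p53Flox/Flox, alleles that are recombined only in cells reached by Cre recombinase. The 4 tumor-bearing mice had received AdCre, an adenovirus that expresses Cre, into the trachea and were killed 14 weeks later; the 3 tumor-free mice are labelled as controls, and the labels list the same protocol text for them. Ages were 31 weeks except for 1 mouse of each group, replicate 4 with and replicate 3 without a tumor, killed at 23 weeks. For each mouse, digested bone was pooled with lineage-depleted marrow, and 2000 cells positive for GFP and negative for CD45, CD31 and Ter119 were sorted for 1 library of transcript 3′ ends.

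Bone-forming cells depend on several kinds of carrier. Amino acid carriers supply the glycine, proline and other residues of collagen, phosphate and calcium carriers serve mineral deposition, nucleotide sugar carriers feed glycosylation in the Golgi, and ascorbate is a cofactor of the enzymes that hydroxylate collagen. The inner membrane of mitochondria has a carrier family of its own, Slc25, which exchanges ADP for ATP and moves phosphate and metabolites.

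Counts were few. Library totals ranged from 77127 to 169774. Within 1 library, 3 counts were taken as the most that a gene seen 0 times may have under counting error alone. Depending on the library, 3 counts corresponded to 17.7 to 38.9 CPM, the unit of counts scaled to library size. In each library the most counted gene had 282 to 303 counts, whereas totals differed 2.20-fold between the deepest and the shallowest. Osteoblast markers summed to 109 to 266 counts per library and none of the 12 was at 0 throughout. Of the 12, 6 passed the filter on low counts, Col1a1 with 23 to 96 counts among them. The osteocalcin gene Bglap, whose promoter drives the reporter, had 0 to 2 counts. Sp7 and Postn also had 0 to 2, Bglap2 0 to 1, Alpl 1 to 7 and Spp1 1 to 14. Stromal and adipocyte markers, 8 genes, summed to 194 to 317 counts, with Lpl at 124 to 203, Lepr at 58 to 123 and 2 genes at 0 throughout. Chondrocyte markers, 7 genes, summed to 46 to 275, with Sox9 at 41 to 166 and 1 gene at 0 throughout. Of the markers of cells that the sort removed, 7 of 8 endothelial genes and 6 of 12 leukocyte genes had no count in any library; the CD45 gene Ptprc had 0 to 2 counts and the CD31 gene Pecam1 had 0. Leukocyte transcripts were not all absent: the integrin gene Itgam had 19 to 45 counts and Csf1r 8 to 24, and the 12 leukocyte markers summed to 32 to 69 counts per library. Their part in the counts of the members was not tested. The 12 erythroid markers measured summed to 23 to 68 counts. In sorted cells pooled for 1 library, fewer cells with a transcript and less of it per cell cannot be told apart.

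The 49 members made up 13.1% of the Slc genes; by the same threshold 10.7% of all 20352 protein-coding genes passed (2180 genes). Of the other Slc genes, 135 had no count in any library and 189 had counts below the threshold. The members held 13831 of the 16062 counts on Slc genes (86.1%). Every member had a count in every library, and together they took 1.54% to 1.78% of a library's counts. Counts were concentrated in few genes: the 14 members with a mean of 50 or more held 59.2% of the members' counts, while 19 members had a mean under 20. At the edge of the threshold, Slc2a10, a glucose transporter family member, had a mean of exactly 10 counts and Slc8a1, the sodium/calcium exchanger of the plasma membrane, 10.4. Just below it were the glutamate carrier Slc1a3 with a mean of 9.43, of which 48 of 66 counts fell in tumor-free replicate 3, and the fatty acid transport protein Slc27a1 with 9.

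Sorted by what they carry, the members belonged to 27 of 51 Slc families and 17 of 24 substrate classes. Amino acid carriers were the class with the most members, 11 of the 42 genes of that class, and held 29.8% of the members' counts. Bile acid and organic ion carriers (5 of 35 genes) held 11.8%, vesicular and organic anion carriers (3 of 14) 10.7%, and metal carriers (5 of 30) 10.4%. Another 10.2% fell on 5 genes with no agreed substrate. Vitamin carriers held 5.36% on 2 genes, the polyol carriers 5.31% on 1, mitochondrial carriers 4.48% on 5 and calcium exchangers 3.12% on 3. The remaining 9 classes had 1 member each. The classes of phosphate, monocarboxylate, fatty acid, sulfate and other anion, urea and acetyl-CoA carriers, and the sodium-coupled family Slc5 apart from its polyol carriers, had no member.

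**Figure D1:**
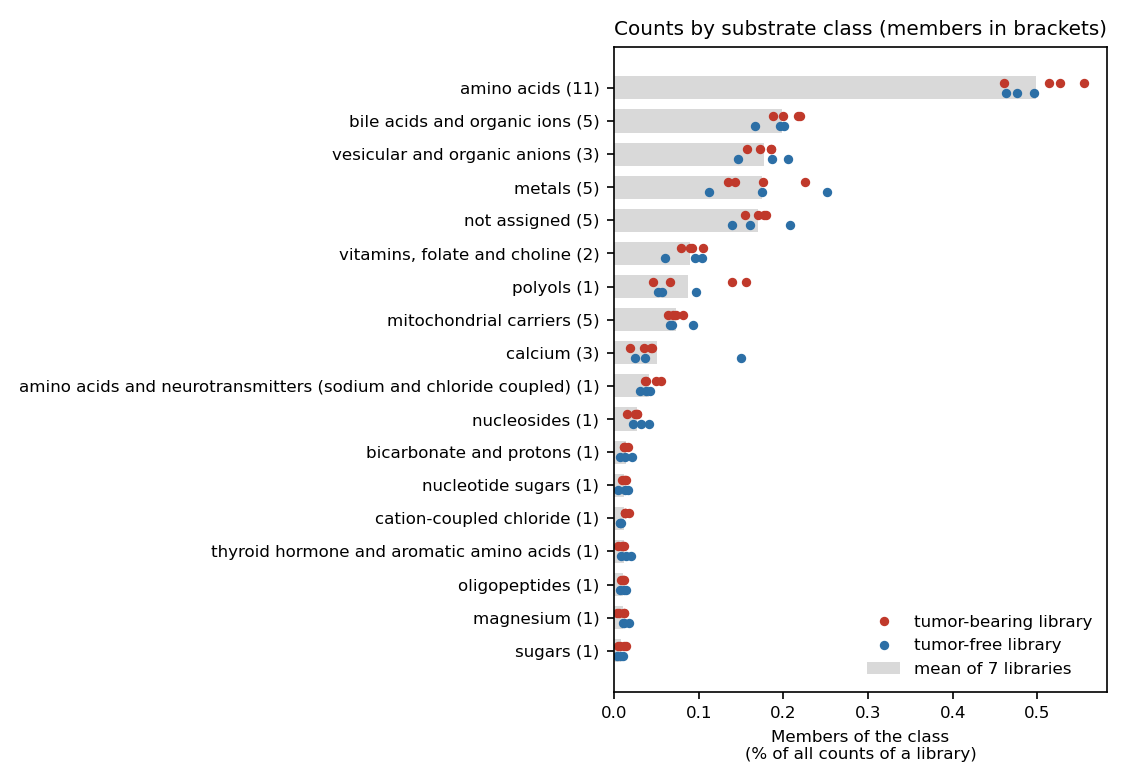
Counts on the members of each substrate class, as % of all counts of a library on the horizontal axis; points are the 4 tumor-bearing and 3 tumor-free libraries, bars their mean over all 7, and the number of members stands in brackets. Amino acid carriers take the most counts in every library; 1 tumor-free library stands apart for calcium exchangers, where 165 of the 270 Slc24a5 counts fell.

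Among the amino acid carriers, Slc7a14, a lysosomal member of the cationic amino acid family, had the most counts: 78, 87, 143 and 139 in tumor-bearing replicates 1 to 4 and 70, 100 and 102 in tumor-free replicates 1 to 3. Slc38a6, of the sodium-coupled neutral amino acid family, had 89, 77, 110 and 98 against 68, 98 and 84 counts. Both were spread over the libraries, and their groups overlapped in CPM. Slc3a2, the CD98 heavy chain that carries light subunits of family Slc7 to the cell surface, had 30, 93, 95 and 184 counts in tumor-bearing and 69, 50 and 93 in tumor-free libraries. Its light chain partner Slc7a5, the best known of the CD98 pairs, had 0 to 2 counts, whereas Slc7a11, the light chain of the cystine/glutamate exchanger, was a member with 5 to 22. The cationic amino acid carriers Slc7a2 and Slc7a1 had 44 to 82 and 8 to 19 counts. Slc43a2, a carrier of large neutral amino acids, had 44 to 99 counts. Slc7a13, better known from kidney, had 37 to 71, and Slc1a2, the main glutamate carrier of astrocytes, 24 to 81. Slc38a9, the lysosomal arginine sensor that signals to mTORC1, had 23, 34, 52 and 37 counts with a tumor and 33, 75 and 25 without; tumor-free replicate 2 was its highest library. Slc7a10, a carrier of small neutral amino acids, had 7 to 15 counts.

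The member with the most counts of all was Slc17a8 (chromosome 10, 89574020 to 89621249, mm10), the vesicular glutamate transporter VGLUT3 of certain neurons. It had 94, 126, 207 and 145 counts in the tumor-bearing and 105, 163 and 168 in the tumor-free libraries, so it was high in all 7. In the same class, Slc17a5, which exports sialic acid from lysosomes, had 26 to 59 counts and Slc18b1, a vesicular polyamine carrier, 11 to 49. Of the sodium- and chloride-coupled neurotransmitter family Slc6, with 20 genes, the noradrenaline carrier Slc6a2 was the single member, at 36 to 85 counts. Among organic ion carriers Slc10a1, the bile acid uptake carrier of hepatocytes, had 83, 72, 121 and 109 counts with a tumor and 69, 109 and 108 without. Slc22a15 had 48 to 102 counts, the urate carrier Slc22a12 22 to 57, the ergothioneine carrier Slc22a4 7 to 37 and Slc22a8, an organic anion carrier of kidney, 6 to 33. Several of these genes are textbook markers of liver, kidney or neurons, so the other markers of those cells were read too; these lists were chosen after the values of the members were seen. Hepatocyte markers summed to 0 to 3 counts per library, with 4 of 5 at 0 throughout, albumin (Alb) among them. Kidney tubule markers summed to 0 to 1 counts, with 3 of 5 at 0. Noradrenergic markers summed to 0 to 3, and the enzyme genes Th and Dbh were at 0. Neuron markers summed to 5 to 32 counts, with 2 of 5 at 0.

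Metal carriers were represented by both proton-coupled iron carriers and by zinc importers. Slc11a1, the NRAMP1 of phagosomes, had 32 to 80 counts, and Slc11a2, the DMT1 of iron uptake, 14 to 46. The macrophage markers Adgre1 and Cd68 had no count in any library, and Csf1r had 8 to 24. Slc39a1, the zinc importer ZIP1, had 56, 29, 64 and 82 counts with a tumor and 131, 44 and 44 without, and tumor-free replicate 1 alone held 131 of its 450 counts. Slc39a14 and Slc39a8, which import zinc, manganese and iron, had 18 to 56 and 9 to 56 counts. Of the 21 other genes of iron, zinc and copper handling none passed the filter on low counts; Tfrc, the transferrin receptor, had 0 to 3 counts and Fth1, ferritin heavy chain, 0.

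Slc5a3 (chromosome 16, 92058322 to 92087473), which takes up myo-inositol, was the second member by counts and one of the most uneven: 120, 45, 236 and 94 counts with a tumor and 58, 119 and 62 without. Its 236 counts in tumor-bearing replicate 3 were the highest of any member in any library. The gene overlaps Mrps6, and 20 of the 49 members overlap another RefSeq gene; whether counting used strand is not stated in the sources at hand, so counts of such pairs can be shared. Slc23a1, an ascorbate carrier that overlaps Paip2, had 62, 83, 117 and 91 counts with a tumor and 50, 100 and 103 without. Slc23a2, the other ascorbate carrier of its family, had 1 count in all 7 libraries together. Slc49a4, a lysosomal carrier of vitamin B6, had 9 to 36. Of the members without an agreed substrate, Slc35g1 had 55 to 99, Slc35f1 38 to 91, Slc35e2 18 to 66 and Slc35e1 11 to 28 counts. For Slc66a2, 50 of 93 counts came from tumor-free replicate 2.

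Mitochondrial carriers were the class with the most genes, 47, of which 5 were members. Slc25a51, which brings NAD into mitochondria, had 6 to 39 counts, and Slc25a11, the oxoglutarate/malate exchanger, 9 to 37. Slc25a42, a coenzyme A carrier, had 12 to 33, Slc25a46, which acts in the dynamics of mitochondrial membranes, 6 to 28, and Slc25a53, whose substrate is not agreed, 5 to 21. The calcium exchangers were Slc24a5, Slc8b1, the mitochondrial sodium/calcium exchanger with 4 to 26 counts, and Slc8a1 with 5 to 17. Slc24a5 (chromosome 2, 125068127 to 125088677), which acts in melanosomes, overlaps Myef2, and whether the 2 genes share counts was not tested. Slc24a5 had 19, 7, 34 and 12 counts with a tumor and 9, 165 and 24 without, so 61.1% of its counts came from tumor-free replicate 2. Of the melanocyte markers, Mlana, Pmel and Tyrp1 had no count, Dct 0 to 2, and Tyr 9 to 56, with 21 in that library. Among the classes with 1 member, beside the polyol carrier Slc5a3 and Slc6a2, was Slc28a3, a concentrative nucleoside carrier, with 12, 24, 47 and 39 counts with a tumor and 42, 27 and 38 without. The others were Slc4a4, a sodium bicarbonate carrier (9 to 28 counts), Slc35a1, the CMP-sialic acid carrier of the Golgi (5 to 22), Slc12a8 (8 to 30), Slc16a10, a carrier of aromatic amino acids (4 to 21), the peptide carrier Slc15a1 (6 to 19), the magnesium carrier Slc41a3 (4 to 18) and Slc2a10 (5 to 17).

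Some carriers that most cells use were close to 0 in the same libraries. A list of 15 of them, chosen after the values were seen, summed to 8 to 20 counts per library, and 3 had no count at all: the glutamine carriers Slc1a5 and Slc38a1 and the anion exchanger Slc4a2. The glucose transporter Slc2a1, the lactate carrier Slc16a1 and the mitochondrial phosphate carrier Slc25a3 had 0 to 1 counts each. The ADP/ATP carriers Slc25a4 and Slc25a5 had 2 to 11 and 2 to 3. A list of 10 carriers with a known part in bone, also chosen after the values were seen, summed to 10 to 32 counts. Neither list holds a member, so their low counts beside the members follow from the choice. Slc3a2, the partner of the listed Slc7a5, had 30 to 184 counts and is on neither list. Of the sodium-phosphate carriers, Slc20a2, Slc34a1 and Slc34a3 had no count, Slc34a2 had 0 to 2, and Slc20a1 had 15 in tumor-free replicate 1 and 0 to 1 in the other 6. A count of 0 in 1 library sets only the limit of 17.7 to 38.9 CPM given above. For a gene at 0 in every library, the limit over all libraries together is lower and was not computed. Counts of 3′ ends were not divided by transcript length. The order of 2 genes by counts is an order of counts, and whether it is the order of their transcript amounts was not tested.

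**Figure D2:**
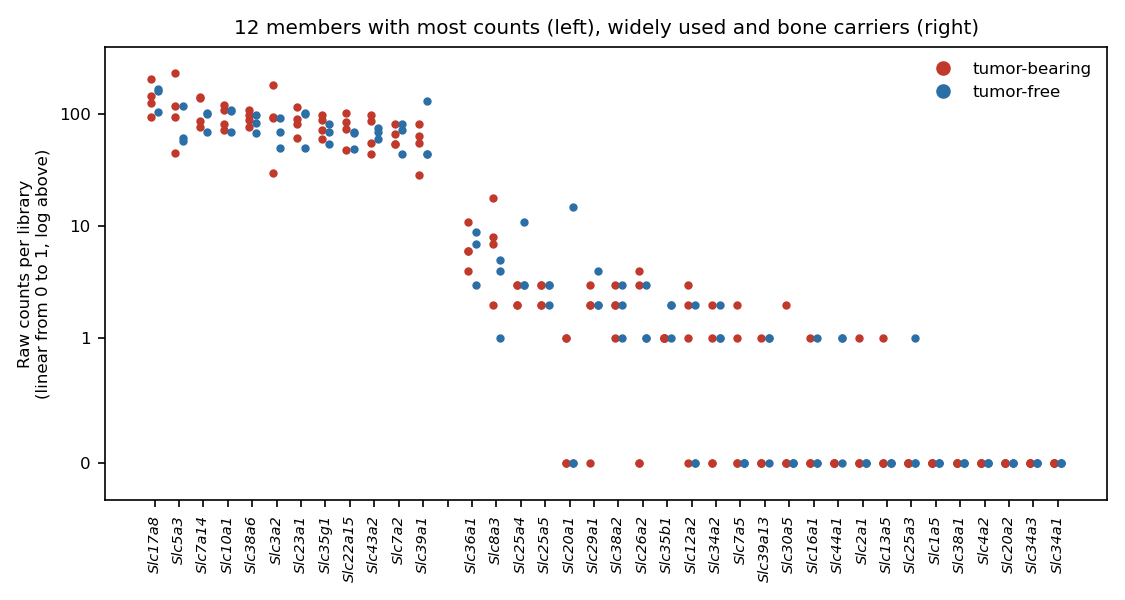
Raw counts per library (vertical axis, linear from 0 to 1 and logarithmic above) of the 12 members with the most counts, on the left, and of widely used and bone carriers, on the right; each point is 1 tumor-bearing or tumor-free library. The members on the left lie between 29 and 236 counts, and no carrier on the right exceeds 18. The carriers on the right were chosen after the values were seen, and no member is among them.

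The members varied between libraries about as much as other genes tested, and more than counting error alone. The chi-square per degree of freedom of a member's counts against the library totals, which is about 1 for counting error alone, had a median of 2.08, beside 2.04 over all 2495 genes tested. It was under 2 for 23 members, with Slc7a13 lowest at 0.331, and over 10 for 5. These were Slc24a5 at 78.1, Slc5a3 at 24.5, Slc39a1 at 23.7, Slc66a2 at 22.8 and Slc3a2 at 17.5. Slc24a5 and Slc66a2 were the 2 members with at least 40% of their counts in 1 library, against 14.3% for an equal share. Between the shallowest and the deepest library, tumor-bearing replicates 1 and 3, the median ratio of counts was 1.93 for the 14 members with a mean of 50 or more, 11 of which lay under the ratio of totals. It was 2.33 for the 19 members with a mean under 20. These are medians over 1 pair of libraries, and single members scattered around them.

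**Figure D3:**
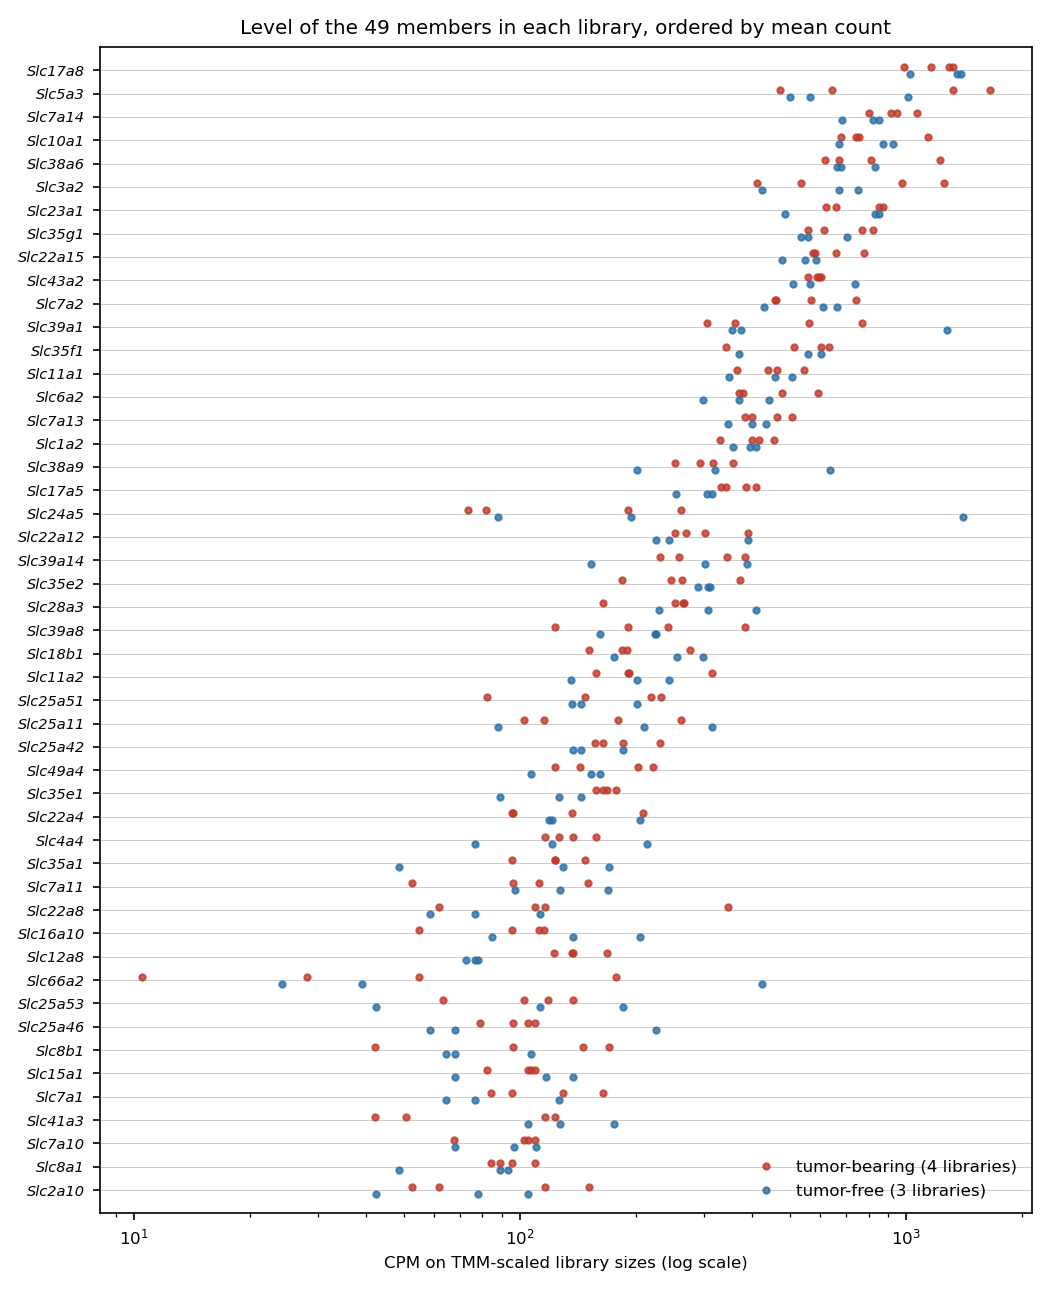
Level of each of the 49 members in CPM on scaled library sizes (horizontal axis, logarithmic), ordered by mean count; red points are the 4 tumor-bearing libraries and blue points the 3 tumor-free ones. The points of most members lie together, whereas Slc24a5 has 1 tumor-free library at 1401 CPM and Slc66a2 1 at 424.

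The transcripts of many members hold short stretches that occur in transcripts of many other genes. In the longest GENCODE vM21 transcript (GRCm38, the assembly of mm10), 20 of the 49 members (40.8%) had a 25-base sequence that recurs, in either orientation, among the transcripts of 50 or more genes. Among the 324 Slc genes below the threshold 9.26% had one. Among other protein-coding genes the shares were 44.8% of 2125 genes with a mean count of 10 or more and 11.7% of 17784 genes with less. Stretches with at least 11 A in 12 bases, away from the last 100 bases, were found in 30.6% of members and 13.3% of the other Slc genes, beside 42.4% and 16.9% of other genes above and below the threshold. Median transcript length was 4094 bases for members and 3322.5 for the other Slc genes, beside 4222 and 2876.5. In these features the members resembled other genes of their count range, and no test was made. Within the members, the 20 with a shared sequence had a median mean count of 48.7 (12.7 to 144) and the 29 without one 17.3 (10 to 105). Of the 10 members with the highest mean count 7 had one, and of the 10 with the lowest 1 had.

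The following stretches are shown because they are the most widely shared 25-base sequence in 6 members, 4 of them among the 10 with the most counts, and because some members hold the same one. Capitals mark the 25 shared bases, lower case the bases beside them, and each is written 5′ to 3′ along the transcript; the members shown were picked after their values were seen.
Slc17a8: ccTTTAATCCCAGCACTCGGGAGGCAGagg
Slc7a14: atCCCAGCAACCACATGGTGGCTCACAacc
Slc11a1: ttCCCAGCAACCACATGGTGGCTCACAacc
Slc12a8: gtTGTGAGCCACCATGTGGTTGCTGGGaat
Slc22a15: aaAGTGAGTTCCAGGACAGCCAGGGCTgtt
Slc3a2: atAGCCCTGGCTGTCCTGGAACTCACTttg
The Slc17a8 stretch (chr10:89575300-89575324, minus strand) lies in the 3′ UTR and occurs in 211 genes. Slc7a14 (chr3:31206323-31206347, minus strand, 3′ UTR) and Slc11a1 (chr1:74385948-74385972, plus strand, in a transcript without coding sequence) hold the same 25 bases, found in 353 genes, and Slc12a8 (chr16:33663523-33663547, plus strand, 3′ UTR) holds their reverse complement. Slc22a15 (chr3:101856426-101856450, minus strand, 3′ UTR) and Slc3a2 (chr19:8707367-8707391, minus strand, 3′ UTR) are reverse complements of each other, in a sequence found in 519 genes. Short interspersed repeats, which are scattered through mouse transcripts in either direction, are the usual carriers of such sequence. How the authors' alignment treated reads that map to several places is not stated in the sources at hand, and the part of shared sequence in the counts was not tested.

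**Figure D4:**
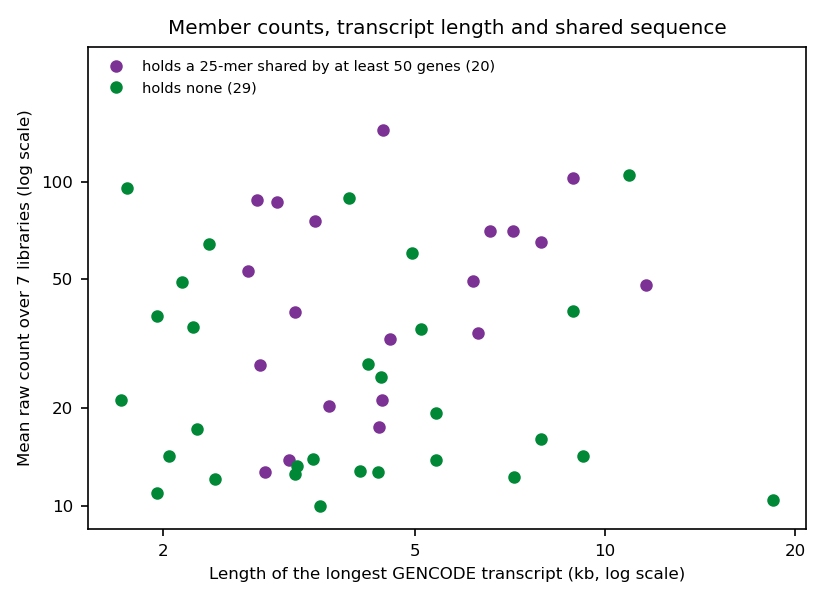
Mean raw count over the 7 libraries (vertical axis, logarithmic) against the length of the longest transcript in kb (horizontal axis, logarithmic) for the 49 members; purple points hold a sequence of 25 bases shared by at least 50 genes and green points hold none. Of the 10 members with the most counts 7 are purple.

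The comparison of tumor-bearing with tumor-free mice asked whether osteoblasts in bone differ when a lung tumor is present. No solute carrier passed the test. Of the 49 members, 48 passed the filter on low counts and were tested with age in the model; Slc66a2, with 1 to 50 counts, did not. With edgeR's quasi-likelihood test and Benjamini-Hochberg adjustment over all 2495 genes, 0 members were called at an adjusted p of 0.05, and 0% of all genes were; the members' adjusted p-values lay between 0.990 and 0.999. Before adjustment 1 member, Slc12a8, had an edgeR p under 0.05, beside 67 of all genes tested (2.69%). The groups did not overlap in CPM for 3 of the 48 (6.25%), Slc12a8, Slc35e1 and Slc17a5, all higher with a tumor, beside 88 of the 2495 genes (3.53%).

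Log2 fold changes, tumor-bearing over tumor-free, were above 0 for 28 members and below 0 for 20 (58.3% above, beside 54.1% of all genes tested). Their median was 0.07, beside 0.04 over all genes; it was 0.01 without tumor-bearing replicate 1 and 0.12 without tumor-free replicate 3. They ranged from -1.89 to 0.90, and 42 of 48 were within 0.5 of 0. Their median size was 0.227, beside 0.231 over all genes, with a median standard error of 0.319. The 95% interval excluded both a doubling and a halving for 27 members and included one of them for 21, so for the latter a 2-fold change lies within the counting and replicate error at this depth. As a share of all counts the members took 1.68% ± 0.0765 (SD, n = 4) with a tumor and 1.64% ± 0.0908 (SD, n = 3) without, a difference smaller than the spread within either group. Of the osteoblast markers tested, 1 was above 0 and 5 below, with a median log2 fold change of -0.50 and none called by edgeR; the list summed to 1146 to 1756 CPM with a tumor and 1539 to 2588 without. Chondrocyte markers summed to 631 to 2891 CPM with a tumor and 870 to 1109 without. The part of either in the members' values was not tested.

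**Figure D5:**
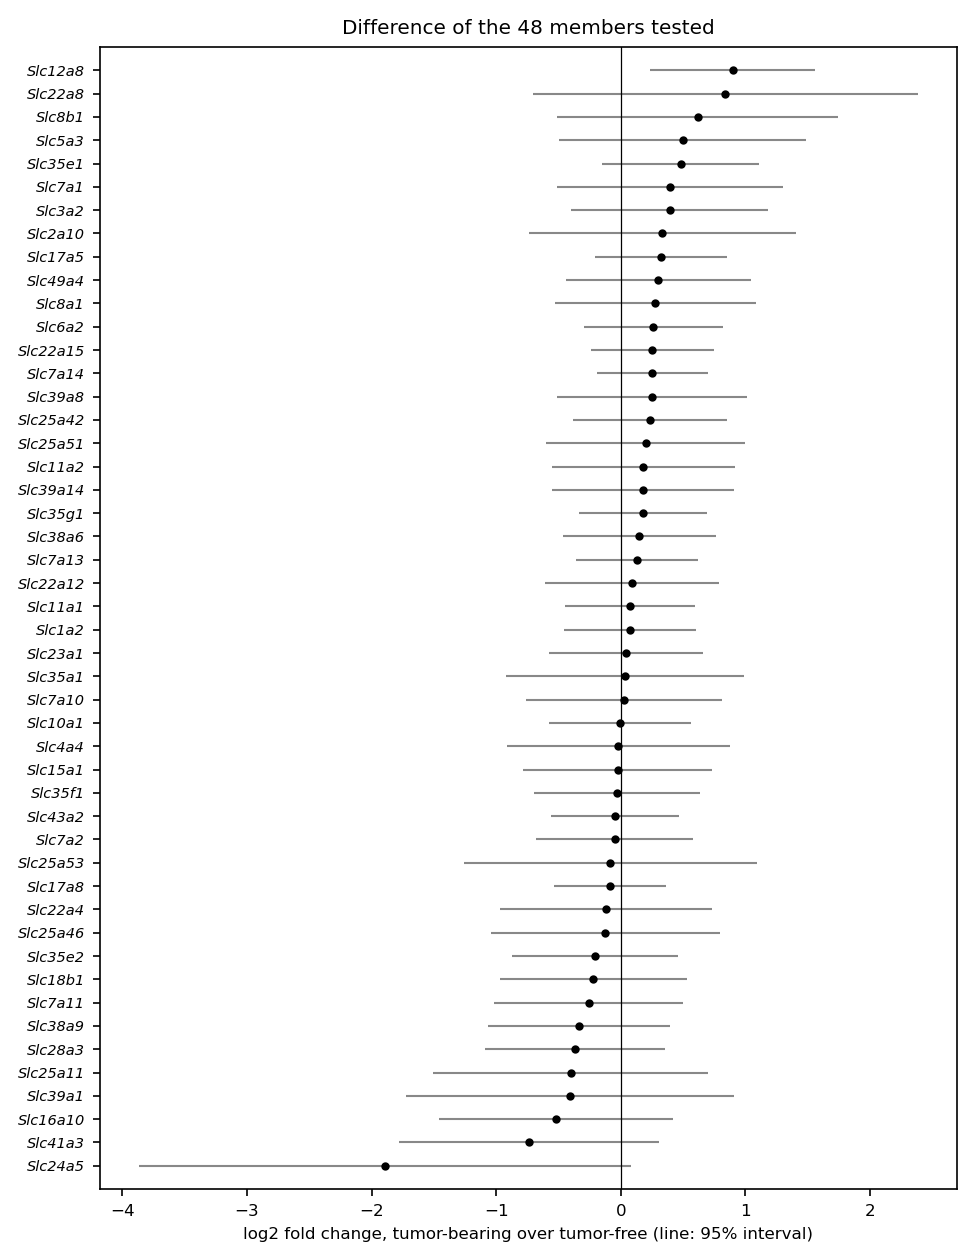
Log2 fold change of each of the 48 members tested, tumor-bearing over tumor-free (horizontal axis), with its 95% interval as a line, ordered by size. The interval of Slc12a8 alone lies wholly on one side of 0; that of Slc24a5, the lowest, is the widest and reaches past 0.

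Slc12a8 (chromosome 16, 33517328 to 33664138), a member of the cation-chloride cotransporter family that has also been described as a carrier of nicotinamide mononucleotide, had 137, 137, 169 and 123 CPM in the tumor-bearing libraries and 77.8, 76.4 and 72.5 CPM in the tumor-free ones. All 4 tumor-bearing libraries were above all 3 tumor-free ones, at 141 ± 19.4 (SD, n = 4) and 75.6 ± 2.74 CPM (SD, n = 3). These levels rest on 8 to 30 counts per library. The log2 fold change was 0.90 (SE 0.29, 95% interval 0.23 to 1.56), with an edgeR p of 0.0138 before and 0.990 after Benjamini-Hochberg adjustment over all genes. Its 3′ UTR holds the shared sequence printed above. Slc35e1, which has no agreed substrate, had 165, 168, 157 and 177 CPM with a tumor and 126, 144 and 88.7 without. Its groups were apart by less than the range of the tumor-free libraries, and the log2 fold change was 0.48 (SE 0.27). For the sialic acid exporter Slc17a5 the levels were 384, 410, 331 and 341 CPM with a tumor and 253, 306 and 314 without, a log2 fold change of 0.32 (SE 0.23). The lowest tumor-bearing and highest tumor-free library of Slc17a5 were 331 and 314 CPM.

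Among amino acid carriers 7 of 11 log2 fold changes were above 0 and 4 below, with a median of 0.07. Slc3a2 had 411, 978, 534 and 1255 CPM with a tumor and 671, 424 and 750 without, a log2 fold change of 0.39 (SE 0.34); its tumor-bearing libraries enclosed the tumor-free ones. Slc7a14 had 1070, 914, 803 and 948 against 681, 849 and 822 CPM (log2 fold change 0.25, SE 0.19), with only tumor-bearing replicate 3 inside the tumor-free range. The tumor-bearing levels of Slc38a6 were 1221, 809, 618 and 669 CPM and the tumor-free ones 661, 832 and 677 (log2 fold change 0.15, SE 0.27). Slc38a9 had 315, 357, 292 and 252 against 321, 637 and 202 CPM. Its log2 fold change of -0.34 (SE 0.32) rested on tumor-free replicate 2 and was 0.11 without that library.

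Of the 5 organic ion carriers 3 were above 0 and 2 below. Slc22a8 had 110, 347, 61.8 and 116 CPM with a tumor and 58.4, 76.4 and 113 without, and its log2 fold change of 0.84 (SE 0.66) came with 1 high library, tumor-bearing replicate 2, and was 0.09 without it. Slc10a1 had 1138, 757, 680 and 744 against 671, 925 and 870 CPM, which overlapped throughout (log2 fold change 0.00, SE 0.25). Slc17a8 likewise overlapped, at 1289, 1324, 1163 and 989 against 1021, 1384 and 1354 CPM (log2 fold change -0.09, SE 0.19). The interval of Slc17a8, -0.53 to 0.36, was among those that excluded a doubling or halving.

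For the myo-inositol carrier Slc5a3 the levels were 1646, 473, 1326 and 641 CPM with a tumor and 564, 1010 and 500 without. Tumor-bearing replicates 1 and 3 were high and 2 and 4 within or below the tumor-free range, and the log2 fold change was 0.50 (SE 0.42). Slc23a1 had 850, 872, 657 and 621 against 486, 849 and 830 CPM (log2 fold change 0.04, SE 0.27). Slc35g1 had 823, 767, 556 and 614 against 535, 705 and 556 CPM (0.18, SE 0.22 on the same scale). All 3 overlapped between groups.

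The metal carriers had 4 log2 fold changes above 0 and 1 below, between -0.41 and 0.25. The one below was Slc39a1, at 768, 305, 360 and 559 CPM with a tumor and 1274, 374 and 355 without. Without tumor-free replicate 1, its highest library, the log2 fold change of -0.41 (SE 0.56) became 0.47. Of the calcium exchangers, Slc24a5 had 261, 73.6, 191 and 81.9 CPM with a tumor and 87.5, 1401 and 193 without. Its log2 fold change of -1.89 (SE 0.84) was the largest of any member and rested on 1 library: without tumor-free replicate 2 it was -0.04. Slc8b1 had 96.0, 42.0, 146 and 171 against 107, 67.9 and 64.5 CPM (0.62, SE 0.49) and Slc8a1 110, 84.1, 95.5 and 88.7 against 48.6, 93.4 and 88.7 CPM (0.28, SE 0.35). Both overlapped between groups.

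Of 7 further members described by library, 5 lay below 0. The magnesium carrier Slc41a3 had 123, 42.0, 50.6 and 116 CPM with a tumor and 175, 127 and 105 without (log2 fold change -0.73, SE 0.45); tumor-bearing replicates 2 and 3 were low. Slc16a10, the aromatic amino acid carrier, had 54.9, 116, 112 and 95.5 against 204, 84.9 and 137 CPM (-0.52, SE 0.40). Slc28a3 had 165, 252, 264 and 266 against 409, 229 and 306 CPM (-0.37, SE 0.31), and all 3 overlapped between groups. Without tumor-free replicate 1, the highest library of all 3, the values were -0.46 for Slc41a3, -0.10 for Slc16a10 and -0.06 for Slc28a3. Slc25a11 had 261, 116, 180 and 102 against 87.5, 314 and 210 CPM, and its log2 fold change of -0.40 (SE 0.47) was 0.06 without tumor-free replicate 2. Slc25a51 had 82.3, 147, 219 and 232 against 136, 144 and 202 CPM (0.20, SE 0.34). The bicarbonate carrier Slc4a4 had 137, 126, 157 and 116 against 214, 76.4 and 121 CPM, a log2 fold change of -0.02 (SE 0.38) that was 0.47 without tumor-free replicate 1. Slc2a10 had 151, 52.6, 61.8 and 116 against 77.8, 42.4 and 105 CPM (0.33, SE 0.46). Every one of these 7 members overlapped between groups.

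The members not given by library had log2 fold changes between -0.26 for Slc7a11 and 0.39 for the arginine carrier Slc7a1. Among them the vitamin B6 carrier Slc49a4 was at 0.30 (SE 0.32), the noradrenaline carrier Slc6a2 at 0.26 (SE 0.24) and Slc22a15 at 0.25 (SE 0.21). The iron carriers Slc11a1 and Slc11a2 were at 0.08 (SE 0.22) and 0.18 (SE 0.32).

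Lists of other genes of transport and ion handling were read too. Of 6 such lists with 14 genes tested in all, 0 genes were called by edgeR's quasi-likelihood test and 0 had an unadjusted p under 0.05. Ion pumps had 2 tested genes above 0 and 1 below; the one below was Atp7a, a copper pump, with 13 to 69 counts and a log2 fold change of -0.31 (SE 0.29). The 3 ABC carriers tested, Abcc9, Abcd4 and Abcg1, were at 0.33, 0.12 and 0.03 on the log2 scale. Of 6 genes of mitochondrial uptake outside family Slc25, 2 were above 0 and 4 below. Their log2 fold changes ran from -0.65 (SE 0.33) for Sfxn3 to 0.99 (SE 1.27) for Sfxn1. The most uneven of these genes was Sfxn1, a mitochondrial serine carrier, for which tumor-bearing replicate 3 gave 169 of 228 counts. Phex, an endopeptidase of phosphate balance in bone, was at -0.33 (SE 0.31) and the ubiquitin ligase Nedd4l, which removes carriers from the cell surface, at -0.37 (SE 0.44).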

How the data were processed

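For each mouse the authors deposited 1 table of raw counts by Entrez gene ID, without normalization. Libraries of 3′ ends were made, per the labels' protocols, with CEL-Seq chemistry and molecular identifiers (UMI). TopHat2 2.0.10, SAMtools and mm10 appear in the submitters' processing notes; the counting tool, annotation, strand option and UMI handling were not given in the sources used here.

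Of 23725 gene IDs, 23666 matched a symbol in a RefSeq table of GRCm38.p6, the assembly of mm10; 6 Slc symbols of non-coding genes or pseudogenes were left out. The 2495 genes kept by filterByExpr (minimum count 10, minimum total 15) were fitted with edgeR 4.0.16 in R 4.3.3: TMM scaling (0.945 to 1.05) of library sizes summed over those genes, robust glmQLFit and glmQLFTest, age as a factor, prior count 0.125, Benjamini-Hochberg at 0.05. CPM used each total times its TMM factor. Replicates are separate mice, and no pair of libraries agreed within counting noise. The procedure was also run on simulated counts with known changes. That run checked the sign of the changes it recovered, and the share recovered is not given here.

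The members and lists were chosen with earlier results of these data known. Substrate classes of 4 genes (Slc4a1ap, Slc49a4, Slc66a2 and Slc43a3), the lists of widely used, bone, liver, kidney, neuron, noradrenergic, melanocyte and macrophage genes, the sequences shown and the bounds of descriptions were set after values were seen. By rule, members given by library were the 8 highest in mean CPM, the 6 or fewer with the smallest p in each direction, those whose groups did not overlap, up to 4 each of phosphate, calcium, bicarbonate and metal lists, the top member of other classes with at least 3, and the 2 on each side of the threshold. Each gene's longest GENCODE vM21 transcript gave the sequence features, leaving out 25-base sequences with at least 23 bases of 2 kinds. The alternatives dropped the age term, kept 31-week mice only, or used a replicate block, DESeq2 1.42.0, limma 3.58.1 voom, RLE scaling, total counts, no filter, a stricter filter, no robust estimation, a prior count of 2, each library left out, and member thresholds of 5 and 20. The replicate block also left out tumor-bearing replicate 4 and the age term. Library sizes over all genes, fitted first and then replaced, are also given as an alternative. Some genes of the lists are not reported here.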

Additional observations from a re-analysis of the deposited data

Results flagged for a closer look

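Among the 24 members given by library, the level of 1 library stood far from the other 3 of the tumor-bearing group in 2 cases. Chance alone flags about 1 in 20 groups. The bound used is for groups of 4 libraries and does not cover the tumor-free group. Uneven tumor-free libraries, such as those of Slc24a5 and Slc39a1, are given above. The level of the bile acid carrier Slc10a1 was 1138 CPM in tumor-bearing replicate 1, above 680 to 757 CPM in the other 3. The level of the nucleoside carrier Slc28a3 was 165 CPM in the same library, below 252 to 266 CPM in the other 3. Tumor-bearing replicate 1 was the shallowest library, with 77127 counts, and the part of its depth in either value was not tested.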

How the results depend on the processing

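Under 19 alternatives no member was called, the lowest adjusted p of a named member being 0.493, by edgeR or the tool of that alternative. Of the 24 members given by library, 14 kept the sign of their log2 fold change in every alternative that could be fitted and 10 turned. For 4 of the 10 the turn came only in the fits that left out each library in turn. The replicate block is not counted among those fits, although it also lacked a library. Slc12a8 stayed between 0.74 and 0.96, with an unadjusted p under 0.05 in 15 of 18 alternatives and adjusted p-values of 0.795 to 0.999.

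The same-numbered libraries did not deviate together (correlations -0.207, -0.122 and -0.146). Libraries with different numbers gave -0.267 to 0.244, so correlations of this size cannot show whether the numbers pair the mice. The fit with the replicate number as a block also left out tumor-bearing replicate 4 and the age term, so these changes cannot be told apart. In that fit the members' median was -0.024 (21 above 0, 26 below). The log2 fold changes of Slc3a2, Slc25a51 and Slc4a4 were -0.047, -0.16 and 0.082. With 31-week mice only, Slc17a8 was at 0.044 and Slc10a1 at 0.065. Without a filter Slc10a1 was at 0.015 and Slc4a4 at 0.0092. With limma voom Slc23a1 was at -0.043 and Slc4a4 at 0.16; with the stricter filter Slc23a1 was at -0.0015, and with no age term Slc4a4 was at 0.00052. Leaving out each library in turn gave -0.25 to 0.062 for Slc17a8, -0.20 to 0.082 for Slc10a1, -0.081 to 0.23 for Slc38a6, -0.22 to 0.23 for Slc23a1, -0.90 to 0.47 for Slc39a1, -0.62 to 0.11 for Slc38a9, -0.11 to 0.32 for Slc25a51, -0.85 to 0.058 for Slc25a11 and -0.41 to 0.47 for Slc4a4. Other members kept their sign in each of these fits but moved by over 1.5 times: 0.15 to 0.32 for Slc7a14, 0.26 to 0.73 for Slc5a3, 0.14 to 0.67 for Slc3a2, 0.075 to 0.28 for Slc35g1, 0.21 to 0.61 for Slc35e1, 0.094 to 1.25 for Slc22a8, 0.17 to 0.97 for Slc8b1, 0.036 to 0.47 for Slc8a1, 0.090 to 0.51 for Slc2a10, -0.59 to -0.061 for Slc28a3, -0.86 to -0.10 for Slc16a10, -2.50 to -0.038 for Slc24a5 and -1.23 to -0.46 for Slc41a3. In the fits with 1 library left out the members' median lay between 0.0081 and 0.12. The cause of these turns was not tested. With library sizes over all genes, an alternative added after the data were seen, the median was 0.050. With members taken from a mean of 20 counts, 10 substrate classes had one in place of 17, since fewer genes qualify. Depth limits the low members most: 19 of 49 had a mean under 20 counts.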
